A study of Mus musculus with 9 samples.

Results

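The expression of 10 genes that act on stored and incoming fatty acids was measured in mouse dendritic cells (DCs): *Plin2*, *Hilpda*, *Dgat1*, *Dgat2*, *Pnpla2*, *Lipa*, *Lpl*, *Cd36*, *Fabp4* and *Fabp5*. They were chosen by name, as the rows of the count table that carry these symbols, and are 10 of the 55471 genes in the table. All 10 passed the filter on low counts, which left 16260 genes for the tests.

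Cells keep surplus fatty acids as triglyceride and cholesteryl ester in lipid droplets, which are coated by perilipins and filled by acyltransferases. Neutral lipases at the droplet and an acid lipase in the lysosome release the fatty acids again, while a secreted lipase, a surface receptor and small cytosolic binding proteins bring them in and carry them. In DCs and macrophages this system is best known for the storage of lipid taken up from the surroundings and for supplying ligands to nuclear receptors.

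RNA was sequenced from 3 groups of 3 libraries, lettered A to C. All cells were wild-type C57BL/6 bone marrow-derived DCs from female mice aged 8 to 20 weeks, cultured with GM-CSF at 20 ng/mL, and all were harvested after 6 h. The groups were unstimulated DCs, LPS-activated DCs (LPS, a bacterial outer membrane component, at 100 ng/mL) and IFN-β-treated DCs (IFN-β, a type I interferon, at 1000 U/mL). The labels do not say whether the libraries of a group came from separate mice or cultures, so p-values measure the spread between these libraries, and with bulk RNA fewer cells of a type and less RNA per cell cannot be told apart.

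The libraries held 33425803 to 43735199 counts on genes, and 3 counts, taken as the floor, correspond to 0.0674 to 0.106 counts per 1000000 (CPM). The scaling factors of the trimmed mean of M-values (TMM) were 1.18 to 1.26 in unstimulated, 0.783 to 0.841 in LPS and 0.977 to 1.02 in IFN-β libraries, and CPM below are on that scale. Of 10 DC markers 9 passed the filter, with *Cd209a* at 0 to 16 counts as the exception, and their summed level was 4949 to 5816 CPM in unstimulated, 6610 to 7252 CPM in LPS and 5489 to 5797 CPM in IFN-β libraries. All 10 macrophage markers passed as well (2007 to 2597, 2809 to 3536 and 2709 to 3161 CPM). Of 7 adipocyte markers none passed, their summed level was 0.0291 to 0.193 CPM in any library, and *Lep* and *Adrb3* had 0 counts in all 9 libraries, so transcripts particular to adipocytes were not detectable at this depth or lay near the floor. The lists of neutrophils (9.93 to 25.7 CPM) and of mast cells and basophils (2.65 to 11.1 CPM) were low in every library. Markers of endothelial and stromal cells summed to 15.1 to 17.5 CPM in unstimulated, 149.8 to 163.4 CPM in LPS and 132.2 to 160.7 CPM in IFN-β libraries, mostly through *Kdr*, and the part of this rise in the results below was not tested.

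Promoter sequences of 5 of the 10 genes, 6 windows in all, were available from RefSeq (GRCm38.p6), each with 250 bases before and 50 after an annotated start. Those of *Plin2* and *Hilpda* are shown because both genes rose under both stimuli with TMM scaling and both are known targets of the hypoxia-inducible factors. With scaling by library size only, their log2 fold changes under LPS were 0.07 and 0.03. *Pnpla2* also rose under both stimuli with TMM scaling, and its window is not shown. Capitals mark the core letters of a hypoxia response element, ACGTG or GCGTG, on either strand (the reverse complements read CACGT and CACGC), and each sequence is written 5′ to 3′ on the strand of the gene. They come from chr4:86670010-86670309 (minus strand), chr6:29272238-29272537 and chr6:29272376-29272675 (both plus strand, and overlapping each other).
*Plin2*: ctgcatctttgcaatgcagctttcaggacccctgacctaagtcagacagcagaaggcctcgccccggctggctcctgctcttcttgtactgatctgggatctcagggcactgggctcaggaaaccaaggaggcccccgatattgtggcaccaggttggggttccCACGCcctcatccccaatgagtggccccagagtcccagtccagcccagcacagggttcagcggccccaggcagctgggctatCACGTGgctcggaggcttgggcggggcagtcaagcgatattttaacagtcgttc
*Hilpda*, first start: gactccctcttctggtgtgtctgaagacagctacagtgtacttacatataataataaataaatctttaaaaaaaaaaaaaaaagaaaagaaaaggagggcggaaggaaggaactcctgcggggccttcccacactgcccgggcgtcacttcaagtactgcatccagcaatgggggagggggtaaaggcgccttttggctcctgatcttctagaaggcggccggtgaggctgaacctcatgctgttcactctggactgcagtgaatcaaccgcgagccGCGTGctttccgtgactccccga
*Hilpda*, second start: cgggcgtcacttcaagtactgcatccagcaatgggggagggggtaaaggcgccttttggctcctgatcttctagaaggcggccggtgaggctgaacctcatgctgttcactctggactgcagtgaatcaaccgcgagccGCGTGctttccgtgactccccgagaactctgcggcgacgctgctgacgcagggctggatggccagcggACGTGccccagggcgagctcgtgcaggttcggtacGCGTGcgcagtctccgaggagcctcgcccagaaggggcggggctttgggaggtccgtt
Counted from 1 at the 5′ end, the *Plin2* window held GCGTG on the opposite strand at bases 165 to 169 and ACGTG on both strands within bases 247 to 252, where it lies inside the E-box CACGTG across the annotated start. The second *Hilpda* window held GCGTG at bases 140 to 144 and 243 to 247 and ACGTG at bases 208 to 212, and the first held the same GCGTG as its bases 278 to 282. Such short motifs are common, since of 32851 promoter windows 19.6% held ACGTG, 32.4% GCGTG and 43.8% either, and 7.15% held the E-box. Of the 6 windows of these genes 3 held either core, namely the 3 printed here, and those of *Pnpla2*, *Lipa* and *Cd36* held neither. The interferon-type motifs TTCNNNGAA (8.3% of all windows) and GAAANNGAAA (3.44%) and the PPAR-type repeat AGGTCANAGGTCA (0.0396%), searched on both strands, were not found in any of the 6 windows, which says only that these letters are not there.

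Levels of different genes are compared per length, as CPM per kilobase (kb) of the longest protein-coding transcript. The order of the genes depends on this choice. All annotated exons together cover 3567 bases for *Fabp5*, against 987 in that transcript. For *Fabp4* they cover 4489 against 896, for *Lpl* 10478 against 4115 and for *Cd36* 3590 against 3399. Levels per length of all exons were not computed. In unstimulated DCs *Lpl* was highest with 868.1 ± 74.7 CPM per kb (SD, n = 3), place 25 of 16239 genes ranked, and took 0.438% of all counts. *Fabp5* followed with 461.8 ± 94.6 CPM per kb. *Cd36* (275.8 ± 41.5) and *Lipa* (267.1 ± 26.8) overlapped in their libraries, and *Plin2* (137.9 ± 20.3) lay below both. *Fabp4* (26.9 ± 10.4) and *Pnpla2* (17.1 ± 1.66) overlapped, as did *Hilpda* (8.17 ± 1.47) and *Dgat1* (6.11 ± 0.591). *Dgat2* was lowest with 0.613 ± 0.0864 CPM per kb, place 12825. Under LPS *Cd36* (332.7 ± 50.8) stood above *Fabp5* (256.8 ± 25.0), *Plin2* (215.7 ± 15.6) overlapped with *Lipa* (192.3 ± 13.7), and *Dgat2* (4.65 ± 1.23) overlapped with *Dgat1* (5.57 ± 1.10). Under IFN-β *Lpl* (1093 ± 71.0) and *Fabp5* (529.6 ± 47.6) again came first, then *Lipa* (387.5 ± 12.2), and *Cd36* (318.4 ± 33.04) overlapped with *Plin2* (281.2 ± 16.8). *Lpl* was thus first in all 3 groups and *Dgat2* last, although in LPS libraries *Dgat2* and *Dgat1* were not apart.

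**Figure D1:**
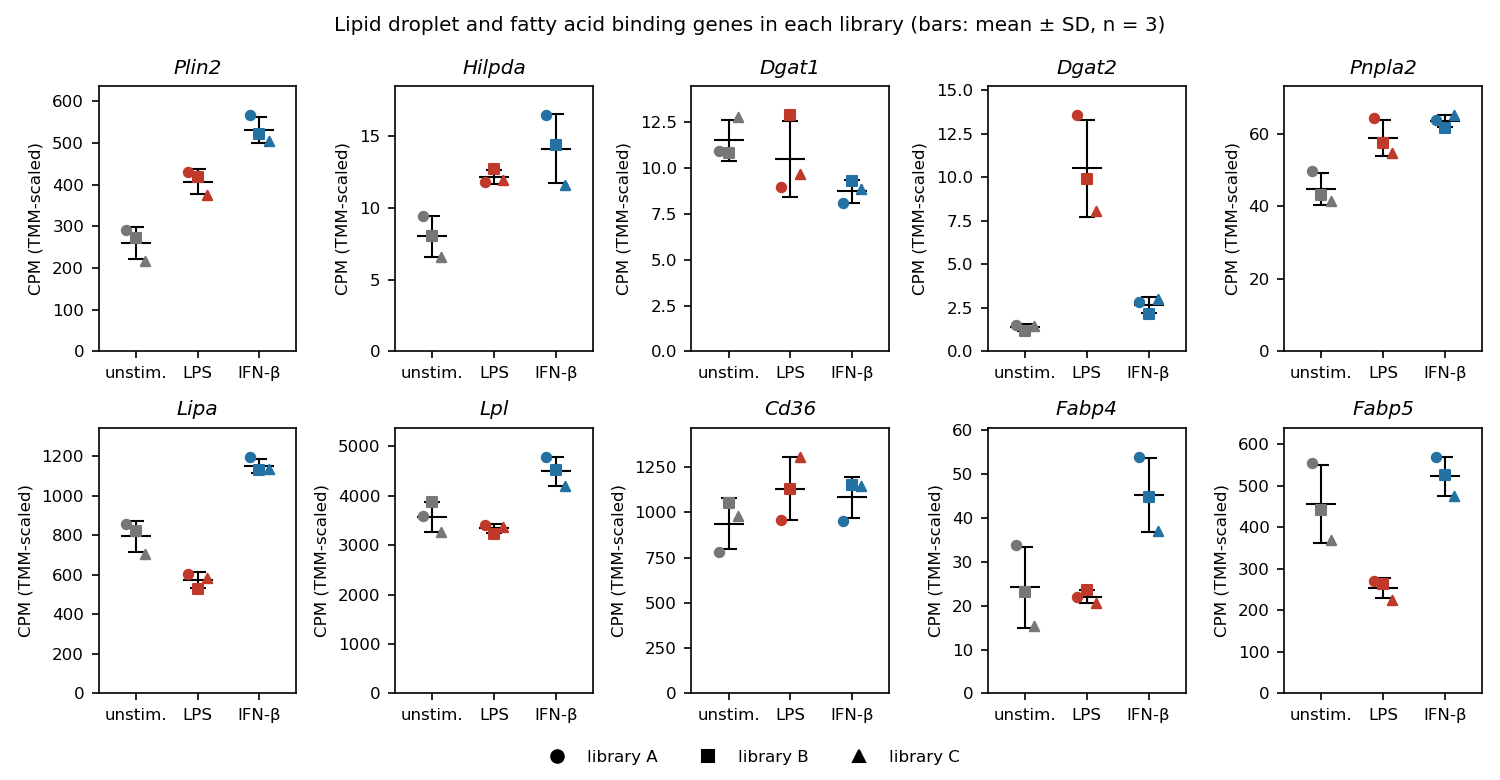
Level of each of the 10 genes in CPM with TMM scaling (vertical axes, each from 0) in the 9 libraries, by group (grey, unstimulated; red, LPS; blue, IFN-β), with marker shapes for the letters and bars for the mean ± SD of 3 libraries. *Dgat2* stands between 8.08 and 13.6 CPM in LPS libraries and at 1.17 to 1.55 CPM in unstimulated ones, and *Lipa* moves down under LPS and up under IFN-β.

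Under LPS, 6 of the 10 genes passed the threshold of an adjusted p under 0.05 (quasi-likelihood test of edgeR, adjusted after Benjamini and Hochberg over all genes tested), against 68.2% of all tested genes, and 4 rose (*Plin2*, *Hilpda*, *Dgat2* and *Pnpla2*; 32.8% of all genes rose) while 2 fell (*Lipa* and *Fabp5*; 35.4% of all genes fell), although with scaling by library size only 1 rose and 6 fell. Under that scaling 78.0% of all genes passed under LPS, 17.1% rising and 60.9% falling. Under IFN-β, 8 of 10 passed against 46.9% of all genes, and 7 rose (*Plin2*, *Hilpda*, *Dgat2*, *Pnpla2*, *Lipa*, *Lpl* and *Fabp4*; 23.6% of all genes) while 1 fell (*Dgat1*; 23.3%), with 6 rising and 1 falling by library size only, where 59.2% of all genes passed, 13.2% rising and 46.0% falling. The share under LPS was near that of all genes and the share under IFN-β above it. The 10 genes were chosen with earlier results of these data known, so these shares are a description and no independent test. The median log2 fold change of the 10 was 0.09 under LPS and 0.52 under IFN-β, where the medians of all tested genes were -0.04 and -0.02. Their median absolute log2 change was 0.43 under LPS, below the 0.65 of all genes, and 0.52 under IFN-β, above the 0.35 of all genes. With both stimuli compared directly, 6 of 10 differed (49.1% of all genes), 5 higher under IFN-β (25.8%) and 1 lower (23.3%), and by library size only 7 were higher and 1 lower (55.5% of all genes passed, 43.2% higher and 12.3% lower). In each of these 20 calls the libraries of the groups compared did not overlap. This rests on the same values as the calls and is no further support for them. The share of all called genes without overlap was not counted. Under LPS, 17 of the 18 tested transcriptional regulators listed below, called or not, did not overlap either, and 6 of the 18 rose and 9 fell. The calls of the 10 genes come from fits without regard to the letters. With the letters as a replicate block, 7, 10 and 6 genes passed under LPS, under IFN-β and between the stimuli. The shares of all genes were then 73.5%, 56.3% and 58.0%.

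**Figure D2:**
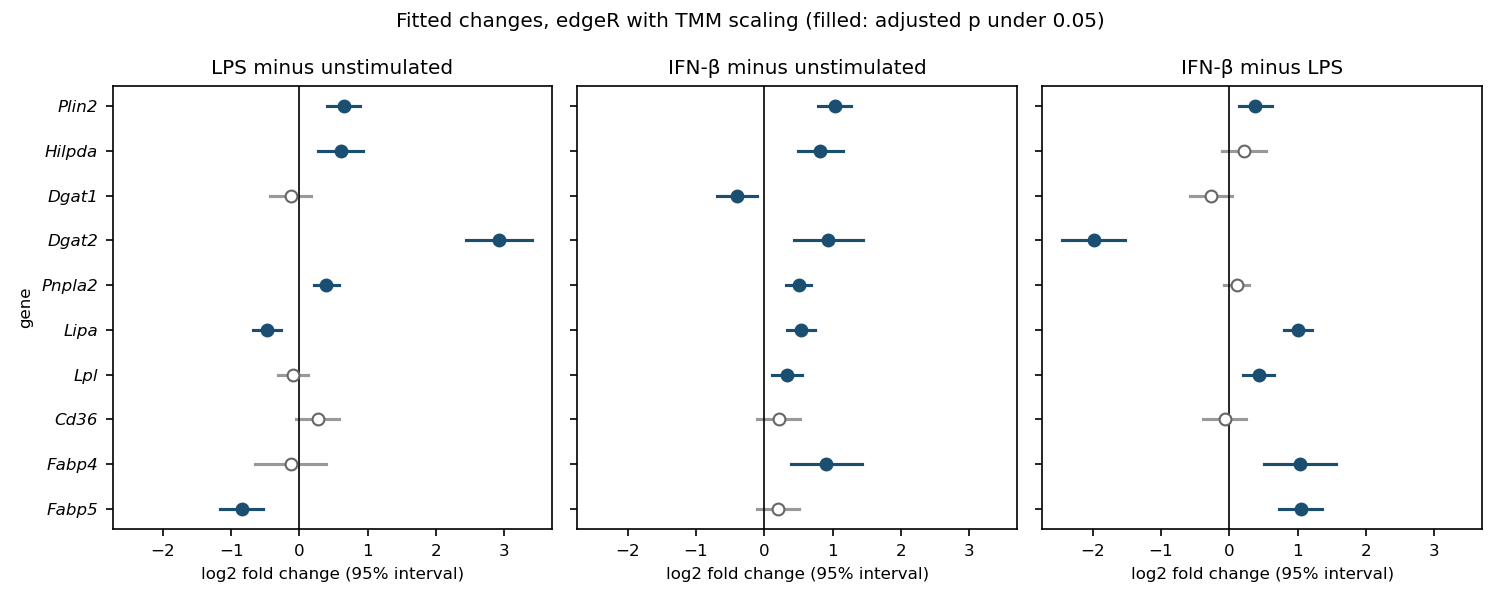
Log2 fold change of each gene (horizontal axis, with its 95% interval) for each stimulus against unstimulated DCs and for IFN-β against LPS, fitted with edgeR and TMM scaling, with filled points where the adjusted p was under 0.05. *Plin2*, *Hilpda*, *Dgat2* and *Pnpla2* lie to the right of 0 in both comparisons with unstimulated DCs, though with library size scaling *Pnpla2* lies left of it under LPS, and *Lipa* lies on opposite sides.

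Both genes that restrain lipolysis at the droplet rose under both stimuli, with the larger change under IFN-β for *Plin2*. *Plin2* (ENSMUSG00000028494, chr4:86648386-86670060) encodes perilipin 2, the droplet coat protein of cells other than adipocytes. It stood at 292, 271 and 218 CPM in unstimulated libraries A, B and C, at 430, 417 and 374 CPM in LPS libraries, and at 566, 523 and 504 CPM in IFN-β libraries. The groups formed 3 steps without overlap. *Plin2* rose 1.56-fold under LPS (log2 fold change 0.65, SE 0.11, adjusted p = 0.000328) and 2.04-fold under IFN-β (1.03, SE 0.11, adjusted p = 3.91e-05). The IFN-β level exceeded the LPS level by 0.38 (SE 0.11, adjusted p = 0.0137), a call that was lost without LPS library C (0.32, adjusted p = 0.0575) or IFN-β library A (0.33, adjusted p = 0.0508). Under LPS the rise was a rise against most other genes, since with library size scaling the log2 fold change was 0.07 (adjusted p = 0.53). The share of all counts that *Plin2* took was 0.0319% in unstimulated, 0.0334% in LPS and 0.0527% in IFN-β libraries.

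*Hilpda* (ENSMUSG00000043421, chr6:29272488-29275446) encodes a small hypoxia-inducible droplet protein that inhibits adipose triglyceride lipase, the product of *Pnpla2*. Its level was 9.45, 8.04 and 6.57 CPM in unstimulated libraries, 11.8, 12.7 and 12.0 CPM in LPS and 16.4, 14.4 and 11.6 CPM in IFN-β libraries. Both stimulated groups lay above the unstimulated one, and they overlapped with each other. *Hilpda* rose 1.52-fold under LPS (0.60, SE 0.15, adjusted p = 0.00419) and 1.77-fold under IFN-β (0.82, SE 0.15, adjusted p = 0.00111). The difference between the stimuli was 0.22 with a 95% interval of -0.11 to 0.54 (adjusted p = 0.244). With library size scaling the LPS value was 0.03 (adjusted p = 0.88) and the difference between the stimuli 0.49 (adjusted p = 0.0125).

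The 2 acyltransferases that catalyse the last step of triglyceride synthesis moved apart. *Dgat2* (ENSMUSG00000030747, chr7:99153658-99182719), whose enzyme works at the droplet surface, had 61, 52 and 64 counts in unstimulated libraries, 383, 340 and 263 counts in LPS libraries and 121, 80 and 108 counts in IFN-β libraries. In CPM these were 1.55, 1.17 and 1.44, then 13.6, 9.90 and 8.08, and then 2.83, 2.12 and 2.98, again in 3 steps without overlap, here with LPS on top. *Dgat2* rose 7.57-fold under LPS (log2 fold change 2.92, SE 0.22, adjusted p = 6.68e-07), the largest change of the 10 genes in either comparison, and 1.91-fold under IFN-β (0.94, SE 0.23, adjusted p = 0.00627). Directly compared, it was 3.96-fold lower under IFN-β than under LPS (-1.99, SE 0.21, adjusted p = 2.06e-05). With library size scaling the LPS rise was 2.33 and the IFN-β rise 0.63 on the log2 scale, both still past the threshold (adjusted p = 8.63e-07 and 0.022).

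*Dgat1* (ENSMUSG00000022555, chr15:76502015-76511953), the acyltransferase of the endoplasmic reticulum, stood at 10.9, 10.8 and 12.8 CPM in unstimulated libraries, at 8.99, 12.9 and 9.68 CPM in LPS libraries and at 8.08, 9.32 and 8.84 CPM in IFN-β libraries. The LPS libraries straddled the unstimulated ones and the IFN-β libraries lay below them. Under LPS the log2 fold change was -0.13 with a 95% interval of -0.43 to 0.17 (adjusted p = 0.409), which became -0.30 without LPS library B (adjusted p = 0.0361) and -0.71 by library size only (adjusted p = 0.00135). *Dgat1* was 1.32-fold lower under IFN-β (-0.40, SE 0.13, adjusted p = 0.0319), the 1 member that fell there. That call was lost without unstimulated library C (-0.32, adjusted p = 0.112), IFN-β library A (-0.35, adjusted p = 0.0984) or IFN-β library C (-0.40, adjusted p = 0.0681). Between the stimuli the difference was -0.27 (95% interval -0.57 to 0.03, adjusted p = 0.128), and -0.38 without LPS library A (adjusted p = 0.0492).

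The lipases of the droplet and of the lysosome differed in their response to LPS. *Pnpla2* (ENSMUSG00000025509, chr7:141455198-141460743) encodes adipose triglyceride lipase, which takes the first fatty acid from a droplet triglyceride. Its level was 49.7, 43.2 and 41.5 CPM in unstimulated, 64.4, 57.6 and 54.6 CPM in LPS and 63.9, 61.6 and 65.0 CPM in IFN-β libraries. Both stimulated groups lay above the unstimulated one and overlapped with each other. *Pnpla2* was higher under LPS by 0.39 on the log2 scale (SE 0.08, adjusted p = 0.00165) with TMM scaling but lower by library size only (-0.19, adjusted p = 0.0230), so its direction under LPS depended on the scaling. Relative to the median of all genes it was 0.44 higher under LPS with TMM scaling and 0.43 by library size. Under IFN-β it rose 1.42-fold (0.50, SE 0.08, adjusted p = 0.000683), and the difference between the stimuli was 0.11 (95% interval -0.08 to 0.30, adjusted p = 0.307), or 0.39 by library size only (adjusted p = 0.000515).

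*Lipa* (ENSMUSG00000024781, chr19:34492318-34527474) encodes lysosomal acid lipase, which splits cholesteryl esters and triglycerides delivered to the lysosome. It stood at 856, 820 and 703 CPM in unstimulated libraries, at 606, 526 and 581 CPM in LPS libraries and at 1192, 1127 and 1133 CPM in IFN-β libraries. *Lipa* was the 1 gene of the 10 that passed the threshold in opposite directions, with all LPS libraries below and all IFN-β libraries above the unstimulated ones. How many of all genes did so was not counted. In the related lists below, 1 of 8 tested genes of lipolysis and 1 of 11 of uptake and binding did so, and 0 in each other list. *Lipa* was 1.39-fold lower under LPS (-0.47, SE 0.09, adjusted p = 0.000919) and 1.45-fold higher under IFN-β (0.54, SE 0.09, adjusted p = 0.000854). The direct difference between the stimuli was 2.01-fold (1.01, SE 0.09, adjusted p = 9.03e-06). Both directions were also found by library size only, with -1.05 under LPS (adjusted p = 2.59e-07) and 0.23 under IFN-β (adjusted p = 0.0223).

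*Lpl* and *Cd36* serve the supply of fatty acids from outside the cell. In the main fits, with TMM scaling, their log2 fold changes did not exceed 0.43 in either direction. *Lpl* (ENSMUSG00000015568, chr8:68880491-68907448) encodes lipoprotein lipase, the secreted enzyme that frees fatty acids from lipoproteins. It stood at 3587, 3872 and 3258 CPM in unstimulated, at 3416, 3229 and 3373 CPM in LPS and at 4775, 4522 and 4193 CPM in IFN-β libraries. The LPS libraries overlapped with the unstimulated ones, and the IFN-β libraries lay above both. Under LPS the log2 fold change was -0.10 (95% interval -0.32 to 0.13, adjusted p = 0.410), and -0.68 by library size only (adjusted p = 2.97e-05). *Lpl* rose 1.26-fold under IFN-β (0.33, SE 0.10, adjusted p = 0.0198), a call that was lost by library size only (0.03, adjusted p = 0.821) and without unstimulated library C (0.27, adjusted p = 0.0634), IFN-β library A (0.28, adjusted p = 0.0678) or IFN-β library B (0.33, adjusted p = 0.0507). It was 1.35-fold higher under IFN-β than under LPS (0.43, SE 0.10, adjusted p = 0.00490). Its share of all counts was 0.438% in unstimulated, 0.274% in LPS and 0.446% in IFN-β libraries.

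*Cd36* (ENSMUSG00000002944, chr5:17781690-17888801) encodes a scavenger receptor that takes up long-chain fatty acids and oxidised lipoproteins. It stood at 780, 1051 and 981 CPM in unstimulated, at 958, 1131 and 1303 CPM in LPS and at 953, 1150 and 1144 CPM in IFN-β libraries. All 3 groups overlapped, and library A was the lowest of its group in each. Without regard to the letters no comparison passed the threshold: the log2 fold change was 0.27 under LPS (95% interval -0.04 to 0.59, adjusted p = 0.113), 0.21 under IFN-β (-0.11 to 0.52, adjusted p = 0.258) and -0.06 between them (-0.38 to 0.25, adjusted p = 0.738). With the letters as a replicate block the same sizes passed, at 0.27 under LPS (adjusted p = 0.00369) and 0.21 under IFN-β (adjusted p = 0.0217). Under LPS *Cd36* also passed without LPS library A (0.38, adjusted p = 0.0382) and with DESeq2 (0.31, adjusted p = 0.0459), while by library size only its sign turned, to -0.31 under LPS (adjusted p = 0.0937) and -0.10 under IFN-β (adjusted p = 0.601).

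The 2 cytosolic fatty acid binding proteins, which carry fatty acids within the cell and lie on the same chromosome, differed in which stimulus moved them. *Fabp5* (ENSMUSG00000027533, chr3:10012548-10016607), the epidermal form, stood at 555, 442 and 370 CPM in unstimulated, at 271, 264 and 225 CPM in LPS and at 568, 525 and 475 CPM in IFN-β libraries. All LPS libraries lay below the other 6, and the unstimulated and IFN-β libraries overlapped. *Fabp5* was 1.80-fold lower under LPS (-0.85, SE 0.14, adjusted p = 0.000277). Under IFN-β the log2 fold change was 0.20 (95% interval -0.11 to 0.51, adjusted p = 0.271), which passed with the replicate block (0.21, adjusted p = 0.0233) and without unstimulated library A (0.36, adjusted p = 0.0314) and turned to -0.10 by library size only (adjusted p = 0.478). The level under IFN-β was 2.06-fold that under LPS (1.04, SE 0.14, adjusted p = 0.000128).

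*Fabp4* (ENSMUSG00000062515, chr3:10204088-10208576), the form named for adipocytes and also made by macrophages, stood at 33.9, 23.1 and 15.4 CPM in unstimulated, at 22.0, 23.6 and 20.6 CPM in LPS and at 53.8, 44.9 and 37.0 CPM in IFN-β libraries. The LPS libraries fell inside the wide range of the unstimulated ones, and all IFN-β libraries lay above the other 6. *Fabp4* rose 1.88-fold under IFN-β (0.91, SE 0.23, adjusted p = 0.00848) and was 2.05-fold higher there than under LPS (1.04, SE 0.24, adjusted p = 0.00401). Under LPS the log2 fold change was -0.13 (95% interval -0.65 to 0.39, adjusted p = 0.644), and -0.70 by library size only (adjusted p = 0.0119). With 2 adipocyte markers at 0 counts in all libraries and none of the 7 past the filter, *Fabp4* was at 621 to 2296 counts a library.

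Ratios of 2 genes within a library do not depend on how libraries are scaled. The ratio of *Dgat2* to *Dgat1* counts was 0.142, 0.109 and 0.113 in unstimulated libraries, 1.51, 0.770 and 0.835 in LPS and 0.352, 0.229 and 0.339 in IFN-β libraries. The 3 groups did not overlap, and only LPS library A held more *Dgat2* than *Dgat1* counts. On the log2 scale the ratio was 3.04 higher under LPS and 1.32 higher under IFN-β. The ratio of *Plin2*, the coat, to *Pnpla2*, the lipase, was 5.24 to 6.28 in unstimulated, 6.68 to 7.25 in LPS and 7.75 to 8.86 in IFN-β libraries, which is 0.26 and 0.53 higher on the log2 scale. The ratio of *Fabp4* to *Fabp5* was 0.0417 to 0.0611 in unstimulated, 0.0810 to 0.0914 in LPS and 0.0781 to 0.0946 in IFN-β libraries, higher by 0.77 and 0.75. For this pair both stimuli thus gave nearly the same ratio, in LPS libraries with lower *Fabp5* and in IFN-β libraries with higher *Fabp4*. Each of the 8 differences between groups that did not overlap had an exact two-sided permutation p of 0.1, the smallest that 3 libraries against 3 allow (0.112 after adjustment over 9 comparisons), and the *Fabp4* to *Fabp5* ratio between the stimuli had p = 0.8.

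**Figure D3:**
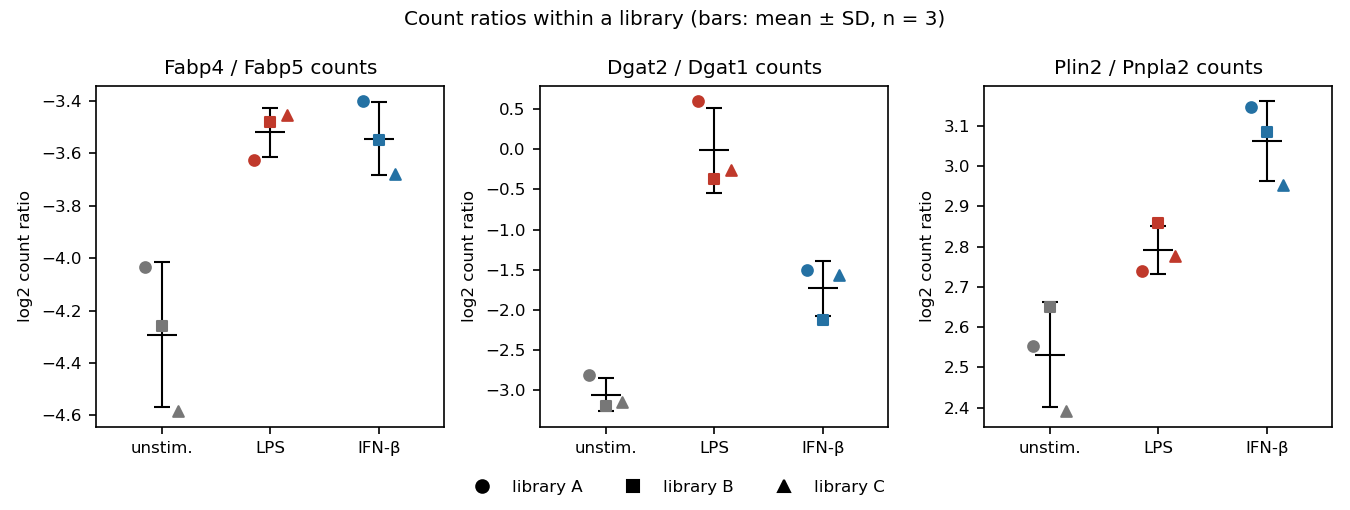
Log2 ratio of the counts of 2 genes within each library (vertical axes) for 3 pairs and 3 groups, with marker shapes for the letters and bars for the mean ± SD of 3 libraries. The *Dgat2* to *Dgat1* ratio is highest under LPS, the *Plin2* to *Pnpla2* ratio rises in steps from unstimulated to LPS to IFN-β, and the *Fabp4* to *Fabp5* ratio is alike under both stimuli.

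The scaling of the libraries moved all genes together. Going from TMM to library size only shifted the middle of all genes (their median log2 fold change) by -0.58 under LPS, by -0.31 under IFN-β and by 0.27 between the stimuli. Taken against the median of all genes, the values of the 10 genes under both scalings were nearly equal, for example 0.69 and 0.69 for *Plin2*, -0.80 and -0.80 for *Fabp5* and 2.96 and 2.96 for *Dgat2* under LPS. On this footing 5 of the 10 genes stood above the median of all genes under LPS and 9 of 10 under IFN-β, with *Dgat1* as the exception. By definition as many of all genes lie above their median as below it, so the count under LPS does not set the 10 genes apart.

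**Figure D4:**
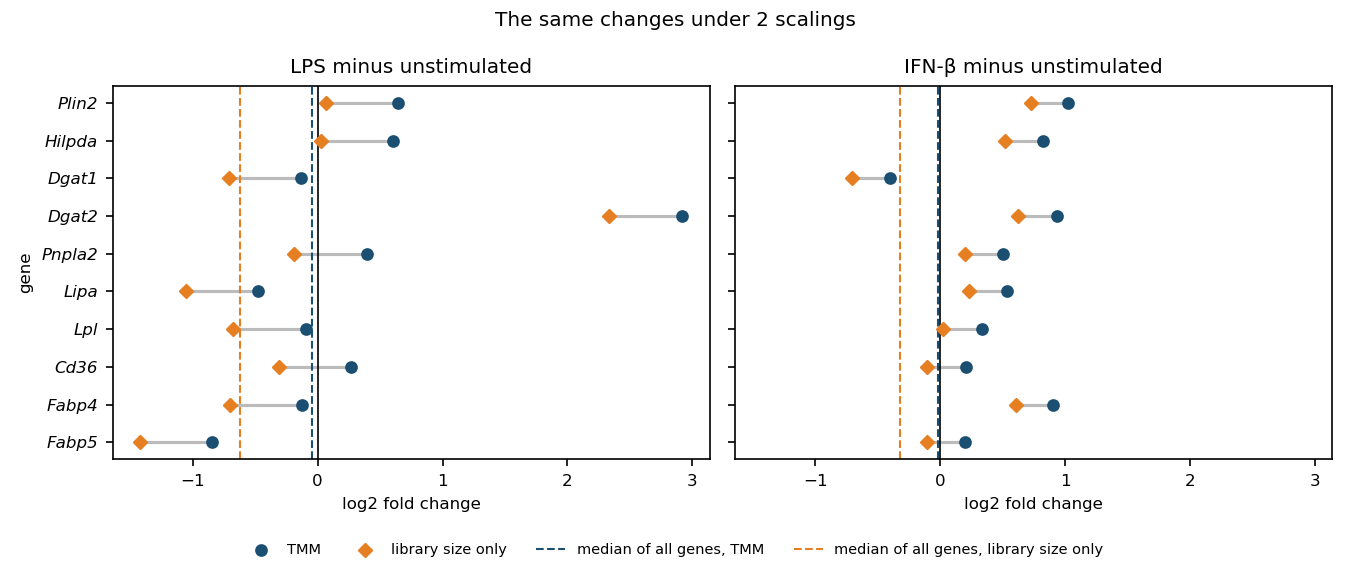
Log2 fold change of each of the 10 genes (horizontal axis) under LPS and IFN-β with TMM scaling (blue circles) and with library size only (orange diamonds), with dashed lines at the median of all genes under each. Points and median move together to the left, by 0.58 under LPS and 0.31 under IFN-β, so that *Pnpla2* crosses 0 under LPS while its distance from the median stays at 0.44 and 0.43.

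Over the 9 libraries the 10 genes fell into patterns that mostly followed the groups, so the following correlations of log2 CPM describe the groups as much as the libraries. Among 80 candidate genes (the other members and the tested genes of 6 related lists), *Plin2* and *Pnpla2* were most like each other (Pearson r = 0.956), and *Hilpda* was most like *Plin2* (r = 0.952). *Lipa* and *Lpl* were most like each other (r = 0.928), and *Fabp4* was most like *Lpl* (r = 0.893). *Fabp5* was most like *Plin3* (r = 0.978), and *Dgat2* most like *Cebpb* (r = 0.981). The closest genes to *Dgat1* (*Rxrb*, r = 0.688) and *Cd36* (*Hif1a*, r = 0.672) were less alike.

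The 6 related lists held 99 genes, of which 71 passed the filter on low counts. With TMM scaling, 25 of the 71 rose and 34 fell under LPS, and 22 rose and 17 fell under IFN-β. These are 83.1% of the 71 under LPS, against 68.2% of all genes, and 54.9% under IFN-β, against 46.9%. The median log2 fold change was below 0 in all 6 lists under LPS, and under IFN-β in 4, with 2 above 0. The median of all genes was itself below 0 (-0.04 and -0.02). Against it, the lists under LPS stood at 0.0046 (synthesis), -0.011 (coat), -0.063 (regulators), -0.10 (uptake), -0.53 (extracellular lipases) and -0.73 (lipolysis). Under IFN-β lipolysis stood at 0.34 and the others between -0.11 and 0.046. As with all genes, scaling by library size moved the lists downwards in both comparisons, and the counts of the single lists by library size stand against 17.1% of all genes rising and 60.9% falling with LPS. For IFN-β the corresponding shares were 13.2% and 46.0%. With TMM scaling, 32.8% of all genes rose and 35.4% fell with LPS, while 23.6% rose and 23.3% fell with IFN-β.

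Among 11 tested of 18 genes of the droplet coat and its assembly, 4 rose and 5 fell under LPS and 3 rose and 1 fell under IFN-β (2 and 8, and 1 and 7, by library size only). *Plin3*, the perilipin found on nascent droplets, fell 1.89-fold under LPS (-0.92, SE 0.11, adjusted p = 1.72e-05), and under IFN-β its log2 fold change was 0.03 (adjusted p = 0.836), or -0.27 by library size only (adjusted p = 0.0229). The perilipins of adipocytes and muscle, *Plin1*, *Plin4* and *Plin5*, and the adipocyte droplet fusion gene *Cidec* had at most 4 counts in any library and were not tested. *Cideb*, a relative of *Cidec*, fell from 1.67 to 0.571 CPM under LPS (-1.53, adjusted p = 0.000647) and stood at 1.65 CPM under IFN-β (-0.02, adjusted p = 0.948). *Fitm2*, which partitions triglyceride into droplets, fell under both stimuli (-1.53 and -1.18, adjusted p = 0.000210 and 0.00199), and *Hsd17b11*, a droplet-associated dehydrogenase, rose under both (1.37 and 0.69, adjusted p = 3.59e-07 and 0.000187).

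Of 14 tested of 18 genes of triglyceride and sterol ester synthesis, 6 rose and 6 fell under LPS and 4 rose and 4 fell under IFN-β (0 and 10, and 1 and 7, by library size only). *Lpin1*, a phosphatidate phosphatase that makes the diacylglycerol used by both Dgat enzymes, fell 14.7-fold under LPS, from 61.0 ± 7.78 to 4.14 ± 0.303 CPM (SD, n = 3; log2 fold change -3.88, adjusted p = 1.91e-09), and 2.17-fold under IFN-β (-1.12, adjusted p = 9.88e-06). *Gpam*, the acyltransferase of the first step, fell under both as well (-0.99 and -0.79, adjusted p = 3.32e-05 and 0.000382). *Soat1*, which makes cholesteryl esters, fell 2.91-fold under LPS (-1.54, adjusted p = 2.67e-07), and its log2 fold change under IFN-β was -0.03 (adjusted p = 0.808), or -0.34 by library size only (adjusted p = 0.00442).

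Of 8 tested of 12 genes of lipolysis and its cofactors, 3 rose and 5 fell under LPS and 4 rose and 1 fell under IFN-β (1 and 5, and 1 and 2, by library size only). *Nceh1*, a cholesteryl ester hydrolase, moved in opposite directions as *Lipa* did: it fell 5.09-fold under LPS, from 125 ± 22.8 to 24.6 ± 2.59 CPM (-2.35, adjusted p = 1.86e-07), and rose 1.45-fold under IFN-β (0.53, adjusted p = 0.00914), the latter lost by library size only (0.23, adjusted p = 0.119). *Mgll*, which splits monoglyceride, fell 3.39-fold under LPS (-1.76, adjusted p = 3.76e-07), and under IFN-β stood at 0.23 (adjusted p = 0.139; with the replicate block 0.22, adjusted p = 0.00688). *Abhd5*, the activator of the *Pnpla2* lipase, fell under LPS (-0.77, adjusted p = 8.87e-06), and under IFN-β its log2 fold change was -0.06 (adjusted p = 0.549), or -0.37 by library size only (adjusted p = 0.00269). *G0s2*, an inhibitor of the same lipase, had at most 9 counts in any library and was not tested. *Lipe*, hormone-sensitive lipase, rose under both (0.72 and 0.43, adjusted p = 1.39e-05 and 0.00133), and neither call held by library size only (0.14 and 0.12, adjusted p = 0.186 and 0.270). *Npc2*, which carries cholesterol out of the lysosome, rose under both, from 646 ± 163 to 1295 ± 202 and 1259 ± 120 CPM (SD, n = 3; adjusted p = 0.000468 and 0.00131). *Abhd6*, a further monoglyceride lipase, rested on 8 to 33 counts a library. Its log2 fold changes were 1.13 and 1.06 (adjusted p = 0.0194 and 0.0351). The LPS call was lost by library size only (0.55) and without unstimulated library B or LPS library A (0.79 and 0.90), and the IFN-β call by library size only (0.75) and without unstimulated library B or C or IFN-β library A or C (0.73 to 1.12).

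Of 9 tested of 13 genes of the extracellular lipase system, 3 rose and 4 fell under LPS and 2 rose and 2 fell under IFN-β (1 and 6, and 1 and 5, by library size only). *Lipg*, endothelial lipase and a relative of *Lpl*, rose from 8 to 19 counts in unstimulated libraries to 805 to 1287 under LPS (6.47, SE 0.42, adjusted p = 2.39e-07) and 152 to 348 under IFN-β (4.03, SE 0.44, adjusted p = 4.61e-05). *Angptl4*, a secreted inhibitor of *Lpl* and a known target of the PPAR receptors, fell from 99 to 182 counts in unstimulated libraries to 1 to 8 under LPS (adjusted p = 3.92e-06) and 21 to 33 under IFN-β (-2.19, SE 0.33, adjusted p = 0.000337). Its LPS level of 0.127 ± 0.110 CPM lay near the floor, so no fold is given. *Gpihbp1*, which anchors *Lpl* on capillary endothelium, had 0 counts in all 9 libraries, which allows up to 0.106 CPM.

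Of 11 tested of 19 genes of fatty acid uptake and binding, 3 rose and 5 fell under LPS and 3 rose and 3 fell under IFN-β (2 and 8, and 1 and 5, by library size only). *Fabp3*, the heart form of the binding proteins, rose from 1.46 ± 0.852 CPM to 36.0 ± 11.7 under LPS and 16.3 ± 3.12 under IFN-β (SD, n = 3; 4.63 and 3.49, adjusted p = 1.92e-06 and 5.45e-05). Both changes were larger than those of *Fabp4* and *Fabp5*. *Cav1*, caveolin 1, a membrane protein that takes part in fatty acid uptake, rose 9.57-fold under LPS (3.26, adjusted p = 4.21e-09) and 1.35-fold under IFN-β (0.43, adjusted p = 0.00500), the latter lost by library size only (0.12, adjusted p = 0.207). *Scarb1*, a lipoprotein receptor related to *Cd36*, fell under both (-1.71 and -0.58, adjusted p = 8.25e-07 and 0.00369).

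Of 18 tested of 19 transcriptional regulators of these genes, 6 rose and 9 fell under LPS and 6 rose and 6 fell under IFN-β (4 and 12, and 3 and 12, by library size only). *Pparg*, the fatty acid-sensing nuclear receptor for which *Cd36*, *Fabp4*, *Lpl* and *Plin2* are textbook targets, stood at 18.7, 14.6 and 12.7 CPM in unstimulated, 2.76, 3.15 and 2.95 CPM in LPS and 9.63, 8.95 and 5.58 CPM in IFN-β libraries. It fell 5.17-fold under LPS (-2.37, adjusted p = 2.72e-06) and 1.90-fold under IFN-β (-0.92, adjusted p = 0.00273). *Cebpa* fell 4.91-fold under LPS (-2.30, adjusted p = 1.79e-05), while its IFN-β value of -0.75 (adjusted p = 0.0295) was lost without unstimulated library A or B or IFN-β library B or C (-0.79 to -0.53). *Klf4* fell under LPS (-1.55, adjusted p = 0.00412) and under IFN-β (-1.21, adjusted p = 0.0224), the latter lost without unstimulated library A or B or IFN-β library C (-1.21 to -1.02). *Tfeb*, a regulator of lysosomal genes such as *Lipa*, fell 3.19-fold under LPS (-1.67, adjusted p = 1.08e-06), and under IFN-β stood at -0.04 (adjusted p = 0.836), or -0.34 by library size only (adjusted p = 0.0486). *Nr1h3*, the oxysterol receptor LXRα, rose under both (1.91 and 1.09, adjusted p = 8.02e-06 and 0.00108), as did *Hif1a*, the hypoxia-inducible factor subunit (1.26 and 0.94, adjusted p = 4.64e-05 and 0.000882). Relatives of these regulators in the same list did not all move with them. In unstimulated, LPS and IFN-β libraries, *Mitf* averaged 140, 267 and 210 CPM and *Tfe3* 107, 117 and 121 CPM (relatives of *Tfeb*). *Ppard*, related to *Pparg*, averaged 46.1, 49.9 and 44.1 CPM, and *Epas1*, related to *Hif1a*, 7.21, 2.38 and 4.65 CPM. *Cebpb*, most like *Dgat2* in pattern, rose 2.23-fold under LPS and 1.34-fold under IFN-β (adjusted p = 5.61e-07 and 0.00199), and *Rxrb*, most like *Dgat1*, fell under both (-0.36 and -0.42, adjusted p = 0.00444 and 0.00298).

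**Figure D5:**
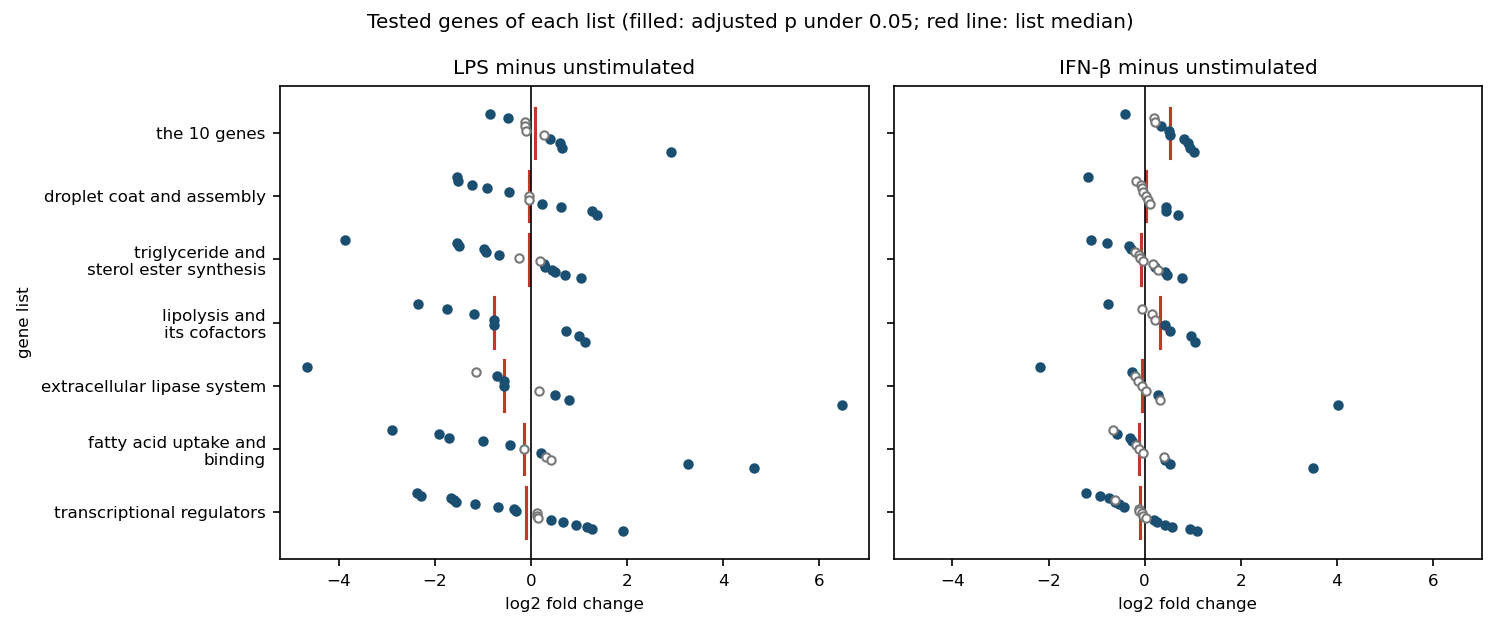
Log2 fold change of every tested gene (points, horizontal axis, TMM scaling) under LPS and IFN-β for the 10 genes and the 6 related lists, with filled points where the adjusted p was under 0.05 and a red line at each list's median. For the 10 genes the median is 0.09 under LPS and 0.52 under IFN-β, and for lipolysis it is -0.77 and 0.33, both of which move left by library size only.

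Counts of 3 of the 10 genes could share reads with other loci, judged by stretches of 50 bases that occur in another annotated gene. Of the stretches of *Fabp5* 5.48% were shared, mostly with its processed pseudogene *Gm6166* on chromosome 9, and of those of *Lpl* 1.40%, with repeats in 351 genes. For *Plin2* the share was 2.57%, all with the unprocessed pseudogene *Gm12551* (chr4:86627075-86631251). The pseudogene *Gm6166* had 10 to 71 counts a library, or 0.136% to 0.361% of the *Fabp5* count. The other 7 genes shared none.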

How the data were processed

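RNA from 9 libraries of mouse bone marrow-derived DCs (3 unstimulated, 3 LPS, 3 IFN-β, 6 h) was ribosome-depleted and sequenced. Per the labels, the authors trimmed with Trim Galore 0.6.0 and mapped with STAR 2.7.8a to mm10 (GRCm38), while the methods name another STAR release, and the authors deposited raw counts per gene made on an earlier GENCODE release, without normalization. The strand setting is not given in the sources used here.

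Counts were tested with edgeR 4.0.16 (limma 3.58.1, R 4.3.3): TMM factors, filterByExpr, 1 term per group over all 9 libraries, quasi-likelihood F-tests and Benjamini-Hochberg adjustment over 16260 of 55471 genes. The SE is the log2 fold change divided by the square root of F. Log2 values of single libraries used a pseudocount of 0.5 CPM, and ratios one of 0.5 counts. Lengths and coordinates came from GENCODE M21 (GRCm38), which holds 55230 of the 55471 identifiers. Floors of 3 counts cover counting error only, since the reads carry no molecular identifiers and need not be independent. The code was tested on simulated data.

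Libraries with the same letter deviated together from their group means over genes (r = 0.134 to 0.546 in 9 pairs, mean 0.394). The mean of -0.194 in 18 pairs of unlike letters is no separate evidence, since deviations within a group cancel out. The letters were thus taken to pair the libraries, from the data and not from a stated design. The main fits and the permutation tests did not use the letters, since the study's methods do not. The paired fit is given as an alternative. The alternatives were DESeq2 1.42.0, library size only, upper-quartile factors, no low-count filter, at least 10 counts in every library, the 2 compared groups alone, the letters as a replicate block, the omission of each library, an adjusted p under 0.01 and, as a further threshold, a log2 change of 1 or more in either direction. The 10 genes and all lists were chosen with earlier results of these data known. From each related list the text names the 2 tested genes with the largest change past the threshold under each stimulus, 10 genes fixed by name (*Abhd5*, *G0s2*, *Mgll*, *Lipe*, *Plin3*, *Gpihbp1*, *Angptl4*, *Pparg*, *Hif1a* and *Tfeb*) and the gene most like each of the 10. *Plin1*, *Plin4*, *Plin5*, *Cidec*, *Kdr*, *Mitf*, *Tfe3*, *Ppard*, *Epas1* and the pseudogenes were named after their values were seen.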

Additional observations from a re-analysis of the deposited data

How the results depend on the processing

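Of the 30 log2 fold changes of the 10 genes, all kept direction and side of the threshold with upper-quartile factors, without a low-count filter, with at least 10 counts in every library and with the 2 compared groups alone. With DESeq2 29 did, the exception being *Cd36* under LPS, and with the replicate block 27, where *Cd36* under both stimuli and *Fabp5* under IFN-β were gained and no other call changed. This makes 7, 10 and 6 calls for LPS, IFN-β and IFN-β against LPS in the paired fit, which called 73.5%, 56.3% and 58.0% of all genes. By library size only 16 kept both. Calls were lost for 3 (*Plin2* and *Hilpda* under LPS, *Lpl* under IFN-β) and gained for 5 (*Dgat1*, *Lpl* and *Fabp4* under LPS, *Hilpda* and *Pnpla2* between the stimuli), and 6 changed sign: *Pnpla2* under LPS, called under both scalings, to -0.19, and, below the threshold under both, *Cd36* to -0.31 under LPS, -0.10 under IFN-β and 0.21 between the stimuli, *Fabp5* to -0.10 under IFN-β and *Dgat1* to 0.0040 between the stimuli. Of the other genes named, *Plin3* (from 0.03 to -0.27) and *Mgll* (-0.081) under IFN-β and *Abhd6* (0.20) and *Npc2* (0.24) between the stimuli also changed sign by library size only. *Plin3* did so with upper-quartile factors too (-0.047). The turns by library size follow the shift of all genes between the scalings. Values below the threshold that changed sign with a library left out ranged from -0.38 to 0.19 for *Fabp4* under LPS and from -0.18 to 0.045 for *Cd36* between the stimuli. Under IFN-β they ranged from -0.33 to 0.17 for *Cideb*, -0.12 to 0.039 for *Soat1*, -0.13 to 0.0065 for *Abhd5*, -0.067 to 0.11 for *Plin3* and -0.12 to 0.030 for *Tfeb*, and between the stimuli from -0.28 to 0.15 for *Abhd6*, -0.16 to 0.064 for *Npc2* and -0.034 to 0.85 for *Klf4*. Requiring a log2 change of 1 or more in either direction left 1 gene under LPS (*Dgat2*; 33.4% of all genes) and 1 under IFN-β (*Plin2*; 12.6%). Between the stimuli it left 4, with 3 higher and 1 lower under IFN-β (17.4% of all genes). With an adjusted p under 0.01 there were 6, 6 and 5 calls (58.2%, 33.5% and 36.1% of all genes). With each library left out in turn the calls numbered 6 to 7 under LPS, 6 to 9 under IFN-β and 5 to 7 between the stimuli, where 63.4% to 67.6%, 38.9% to 46.5% and 41.2% to 48.6% of all genes were called. The *Fabp4* to *Fabp5* ratio between the stimuli changed sign without LPS library C (0.01) and IFN-β library C (0.04), within the spread of the libraries. Depth limits *Dgat2* most, with 52 counts in its lowest library.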

Other observations

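The *Plin2* pseudogene *Gm12551*, chosen after its values were seen, had 5, 3 and 1 counts in unstimulated, 21, 19 and 6 in LPS and 163, 105 and 106 in IFN-β libraries. Its mean level was 0.0722 ± 0.0522 CPM in unstimulated, 0.494 ± 0.284 CPM in LPS and 3.18 ± 0.558 CPM in IFN-β libraries (SD, n = 3). IFN-β libraries exceeded LPS libraries by 2.701 on the log2 scale (SE 0.37, edgeR's quasi-likelihood test, adjusted p = 0.000152). Against the *Plin2* count of the same library these were 0.0104% to 0.0434%, 0.0492% to 0.173% and 0.533% to 0.674%, so the pseudogene did not rise in a fixed proportion to *Plin2*. It is annotated on the same chromosome and strand as *Plin2*, and whether its counts are reads of its own was not tested.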
